A study of Homo sapiens with 6 samples.

Results

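Cholesterol and fatty acids are built from acetyl-CoA by enzymes whose genes are largely driven by the sterol regulatory element-binding proteins, SREBPs. When sterols are scarce, the escort protein SCAP carries an SREBP from the endoplasmic reticulum to the Golgi, where it is cut to release a transcription factor, and INSIG proteins hold the complex back when sterols are plentiful. SREBF2 mainly drives the sterol enzymes and SREBF1 mainly the fatty acid enzymes. Androgens raise both sets in prostate cells, and prostate tumours are known for making their own fatty acids. Described here are 33 genes of these pathways, chosen by name, of the 16000 genes with values, and every one of the 33 was found. The sterol branch held 24 genes, among them the SREBP genes and their regulators, and the fatty acid branch held 9.

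RNA was measured in 3 ALDH high and 3 ALDH low samples of LNCaP, a prostate cancer cell line of human origin that responds to androgen. ALDH high cells were the 10% brightest and ALDH low cells the 10% dimmest in the ALDEFLUOR assay, a fluorescent measure of aldehyde dehydrogenase activity. Both groups were grown in RPMI-1640 medium with 10% serum, and the labels name no treatment, transgene or deletion for either. The question is which genes differ in expression between cells of high and of low activity. The labels show neither whether the samples of a group were sorted separately nor the time from sorting to RNA. The p-values therefore measure only the spread between these samples, which may be technical. Because a sorted fraction was measured in bulk, fewer cells of a type and less RNA per cell cannot be told apart.

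Libraries held 23817310 to 30617873 reads in listed rows. All 10 luminal prostate markers looked for were present, led by KLK3, while 1 of 6 leukocyte, 2 of 6 fibroblast, 2 of 5 endothelial and 0 of 4 adipocyte markers had values. The libraries stood apart in a way that crosses the labels. ALDH low 2 lay close to ALDH high 1 and 3, with a median absolute log2 difference of 0.090 from ALDH high 1 over 11506 genes averaging 100 or more normalized reads, against 0.250 from ALDH low 1 and 0.303 from ALDH low 3. ALDH high 2, ALDH low 1 and ALDH low 3 did not lie close to each other. Over the same genes ALDH high 2 lay 0.220 from ALDH low 1, 0.362 from ALDH low 3 and 0.203 from ALDH low 2. ALDH low 1 lay 0.343 from ALDH low 3. Whether the samples numbered 2 stand under their own group's label cannot be told from the labels. Every difference between groups given here takes the labels as they are. Mitochondrial transcripts took 4.87%, 2.88% and 4.88% of reads in samples 1, 2 and 3 of ALDH high, against 2.003%, 4.52% and 2.98% in those of ALDH low (exact permutation test, two-sided, p = 0.3, the smallest possible being 0.1). They were highest in samples 1 and 3 of ALDH high and sample 2 of ALDH low. Cytosolic ribosomal protein genes took 11.6%, 11.1% and 12.6% in the ALDH high samples, against 14.3%, 11.2% and 15.6% in the ALDH low samples (exact permutation test, two-sided, p = 0.3). The fibroblast markers with values, COL1A1 and PDGFRB, summed to 1846, 1539 and 1776 normalized reads in the ALDH high samples, against 881, 1519 and 1478 in the ALDH low samples, and each had all ALDH high values above its ALDH low values without passing the test (log2 differences of 0.46 and 0.23). The endothelial markers with values, VWF and CLDN5, summed to 273, 442 and 234 in the ALDH high samples, against 405, 258 and 359 in the ALDH low samples, a sum carried by VWF (log2 difference −0.21), while CLDN5 differed by 0.45. The other markers of both lists were not analysed here. The part of these measures in the results on the sterol and fatty acid genes was not tested.

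No sterol or fatty acid gene passed the test between the groups as labelled. With limma on log2(normalized reads + 1), adjusted over all genes by the Benjamini-Hochberg method at 0.05, 0 of the 33 were called, and 0 of 16000 genes (0%). At an unadjusted p under 0.05, limma counted 0 of the 33, against 2.11% of all genes (338), or 0.737% counting those lower in ALDH high. EdgeR and DESeq2 counted 357 and 355 genes, and 1 of the 33 each, IDI1 (unadjusted p = 0.0395 by edgeR and 0.021 by DESeq2). The limma count was 12 of the 33 (1697 of all genes) without ALDH low 2, 3 (730 of all genes) without ALDH high 2 and 19 (2454 of all genes) without both, the last chosen after seeing the data, and none of the 33 passed adjustment in these fits. In none of the 33 did the groups separate: no gene had all ALDH high values below, or all above, the ALDH low values, which occurred in 3.32% and 3.67% of all genes (6.99% in either direction). For 30 of the 33 the 95% interval of the difference lay within a 2-fold change either way, against 11958 of all 16000 genes. The exceptions among the 33 were HMGCS1, IDI1 and INSIG1.

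The sterol genes instead varied by library. In 17 of the 24 sterol genes the 3 lowest values came from samples 1 and 3 of ALDH high and sample 2 of ALDH low, an order found in 12.0% of all genes, and in no sterol gene were those libraries the 3 highest, against 13.6% of all genes. The same was true of 5 of the 9 fatty acid genes, with 0 in the opposite order. The median sterol gene deviated from its mean over the 6 libraries by −0.28, 0.15 and −0.30 on the log2 scale in ALDH high 1, 2 and 3, and by 0.28, −0.26 and 0.34 in ALDH low 1, 2 and 3, where the median of all genes was 0.0028 or less. The highest sterol values were in ALDH low 3 for 11 genes, ALDH low 1 for 9 and ALDH high 2 for 4. Of all genes, 27.5% were highest in ALDH low 3, 19.9% in ALDH low 1 and 19.9% in ALDH high 2. The library order was seen by inspection and is given as a description.

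**Figure D1:**
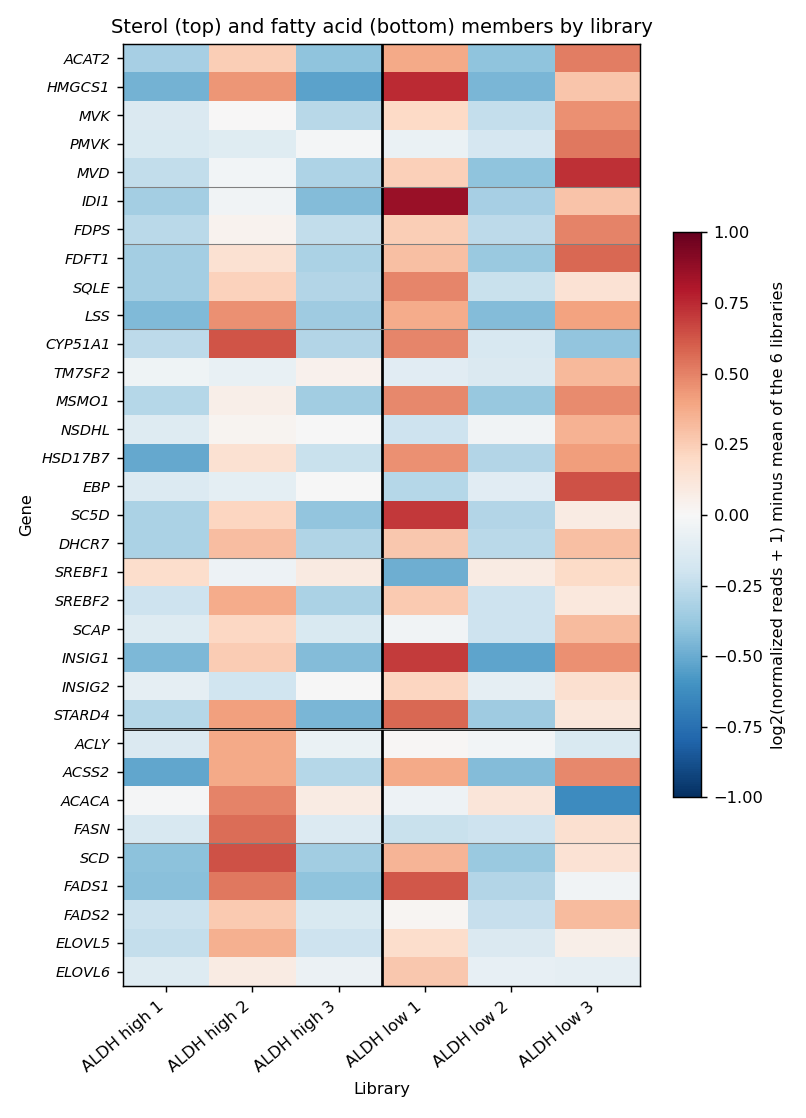
Heat map of log2(normalized reads + 1) minus the gene's mean over the 6 libraries, for the 24 sterol genes above the thick line and the 9 fatty acid genes below it, with ALDH high libraries left and ALDH low libraries right. ALDH high 1, ALDH high 3 and ALDH low 2 are blue for most genes, and 17 sterol and 5 fatty acid genes have their 3 lowest values there.

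The upstream sequences of genes that moved most between libraries are shown because SREBPs act there together with the factors NF-Y and SP1. The 250 bases before the RefSeq start (build GRCh38.p14) are given 5′ to 3′ for the pair of genes in each branch with the widest range between libraries, and for SREBF2, chosen for its match. Capitals mark the letters TCACNCCAC (a sterol regulatory element, N being any base), CCAAT (the NF-Y box) and GGGCGG (the GC box bound by SP1), each on either strand.
IDI1 (chr10:1056705-1056954, minus strand): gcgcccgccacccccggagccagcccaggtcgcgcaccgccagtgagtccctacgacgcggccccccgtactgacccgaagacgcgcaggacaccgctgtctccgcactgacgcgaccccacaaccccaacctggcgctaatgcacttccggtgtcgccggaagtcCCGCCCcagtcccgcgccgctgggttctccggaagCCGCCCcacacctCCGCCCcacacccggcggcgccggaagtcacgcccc
HMGCS1 (chr5:43313413-43313662, minus strand): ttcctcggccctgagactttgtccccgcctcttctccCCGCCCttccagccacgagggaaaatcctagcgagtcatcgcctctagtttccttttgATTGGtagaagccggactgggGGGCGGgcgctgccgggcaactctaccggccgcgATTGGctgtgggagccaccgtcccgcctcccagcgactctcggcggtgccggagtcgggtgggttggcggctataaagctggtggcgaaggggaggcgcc
ACACA (chr17:37406837-37407086, minus strand): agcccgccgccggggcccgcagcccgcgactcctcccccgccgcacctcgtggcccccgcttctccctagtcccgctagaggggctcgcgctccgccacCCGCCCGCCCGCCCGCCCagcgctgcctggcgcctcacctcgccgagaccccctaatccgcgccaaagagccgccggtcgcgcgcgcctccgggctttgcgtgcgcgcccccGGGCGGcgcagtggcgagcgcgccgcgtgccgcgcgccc
SCD (chr10:100346983-100347232, plus strand): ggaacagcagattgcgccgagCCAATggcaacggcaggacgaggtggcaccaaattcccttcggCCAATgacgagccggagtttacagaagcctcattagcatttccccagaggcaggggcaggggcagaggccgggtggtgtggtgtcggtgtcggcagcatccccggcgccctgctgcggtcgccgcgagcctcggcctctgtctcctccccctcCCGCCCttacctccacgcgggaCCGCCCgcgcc
SREBF2 (chr22:41832855-41833104, plus strand): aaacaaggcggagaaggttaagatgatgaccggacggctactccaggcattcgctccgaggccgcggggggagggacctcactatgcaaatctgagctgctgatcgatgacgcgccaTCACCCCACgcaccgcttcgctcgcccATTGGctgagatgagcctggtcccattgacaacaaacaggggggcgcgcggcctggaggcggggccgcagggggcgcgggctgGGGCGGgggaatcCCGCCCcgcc
Of the 33 genes, 29 had an entry, and ACAT2, FASN, FDFT1 and SQLE were without one. The NF-Y box was found in 15 of 21 sterol and 4 of 8 fatty acid windows, against 33.0% of all 27305 windows and 35.2% of the 10501 windows of genes with values. The GC box was found in 20 of 21 and 6 of 8, against 42.3% and 67.0%. The sterol regulatory element letters were found in 1 window, that of SREBF2 at bases 133 to 125 before the start, against 0.875% of all windows. No match of one motif overlapped a match of another in these genes. The start used for IDI1 lies 7534 bases from that of GENCODE release 29, and those of the other genes shown lie at most 109 bases away. The windows describe letters and show no binding.

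Of the enzymes that turn acetyl-CoA into mevalonate and its phosphates, 5 were among the genes chosen. All 5 had log2 differences (ALDH high minus ALDH low) below 0, without passing the test. HMG-CoA reductase, the enzyme between HMG-CoA and mevalonate, was not among the genes chosen and was not analysed here. HMGCS1, which makes HMG-CoA (chromosome 5, 43289395 to 43313512, GRCh38), had 1559, 2935 and 1487 normalized reads in samples 1, 2 and 3 of ALDH high, against 3625, 1571 and 2613 in those of ALDH low. ALDH high 2 lay with ALDH low 1 and 3, and ALDH low 2 with ALDH high 1 and 3, so the groups overlapped. Its log2 difference was −0.38 (95% interval −1.08 to 0.33), while ALDH low 1 and ALDH low 2, which share a label, differed 2.31-fold. ACAT2, the cytosolic acetoacetyl-CoA thiolase, had 1337, 1997 and 1275 normalized reads in samples 1, 2 and 3 of ALDH high, against 2193, 1274 and 2406 in those of ALDH low. Its difference was −0.33 (−0.89 to 0.24), and its 3 lowest libraries were those of HMGCS1, with ALDH low 3 the highest. MVK, mevalonate kinase, differed by −0.28, and MVD, the decarboxylase that ends this stage, by −0.38 with the highest value in ALDH low 3 (2.19 times that in ALDH low 2). PMVK, phosphomevalonate kinase, was the most abundant of the 5 per length, with an RPKM (reads per kilobase of exon, scaled to the listed reads of a library) of 93.4 ± 3.45 for ALDH high against 105 ± 20.7 for ALDH low (SD, n = 3 each). It had 3075, 3145 and 3369.7 normalized reads in samples 1, 2 and 3 of ALDH high, against 3274, 3048 and 4938 in those of ALDH low. Here ALDH low 3 alone stood high and the other 5 libraries lay close together, with a difference of −0.20 (−0.62 to 0.22), which was 0.016 without ALDH low 3.

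The isoprenoid step held the gene with the most negative difference, IDI1, and FDPS beside it, and neither passed the test. IDI1, isopentenyl-diphosphate isomerase (chromosome 10, 1039152 to 1049170), had 1684, 2081 and 1575 normalized reads in samples 1, 2 and 3 of ALDH high, against 3884, 1691 and 2598 in those of ALDH low. ALDH low 1 and 3 were the highest, and ALDH low 2 lay within the ALDH high values. The log2 difference of −0.54 (−1.12 to 0.038, unadjusted p = 0.0639 and adjusted p = 0.984 with limma) was past that of every other gene of the 33. It was −0.25 without ALDH low 1 and −0.85 without ALDH low 2. FDPS, farnesyl diphosphate synthase (chromosome 1, 155308748 to 155320666), had 6782, 8376 and 6894 normalized reads in samples 1, 2 and 3 of ALDH high, against 9705, 6843 and 11568 in those of ALDH low. Its difference was −0.32 (−0.77 to 0.12), with ALDH high 2 between the 3 lowest libraries and ALDH low 1 and 3.

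Squalene enzymes held the library order without exception. FDFT1, squalene synthase (chromosome 8, 11795573 to 11839309), had 9462, 13369.7 and 9633 normalized reads in samples 1, 2 and 3 of ALDH high, against 14776, 9275 and 17909.7 in those of ALDH low. SQLE, squalene epoxidase (chromosome 8, 124998497 to 125022283), had 1169, 1729.8 and 1204 normalized reads in samples 1, 2 and 3 of ALDH high, against 2073, 1265 and 1632 in those of ALDH low. LSS, which closes the ring to lanosterol (chromosome 21, 46188141 to 46228824), had 1524, 2843 and 1623 normalized reads in samples 1, 2 and 3 of ALDH high, against 2691, 1539 and 2739 in those of ALDH low. In each gene ALDH high 2, ALDH low 1 and ALDH low 3 lay above the other libraries, and a different one of them was the highest in each. The differences were −0.34 for FDFT1, −0.27 for SQLE and −0.23 for LSS, and each 95% interval included 0.

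**Figure D2:**
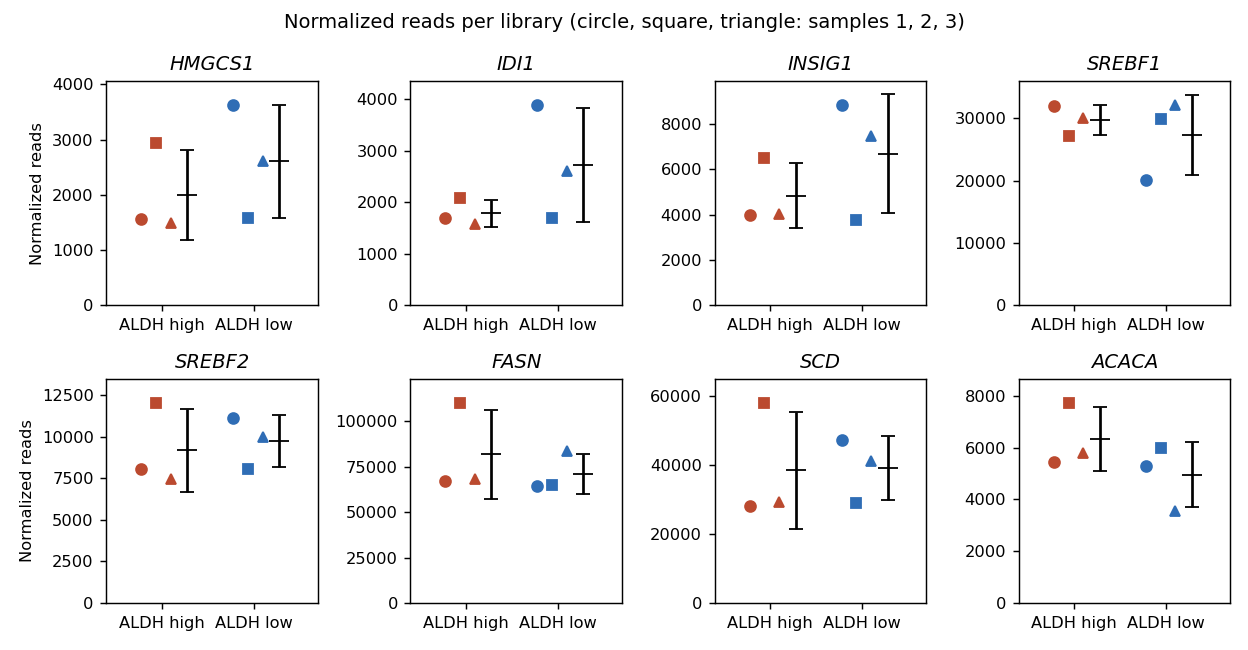
Normalized reads of 8 genes in each library, with ALDH high left (red) and ALDH low right (blue), samples 1, 2 and 3 as circle, square and triangle, and the mean ± SD (n = 3) as a black bar. In HMGCS1, IDI1, INSIG1, SREBF2 and SCD the square of ALDH low 2 lies with the circle and triangle of ALDH high, and ALDH high 2 is the highest library for SREBF2, FASN, SCD and ACACA.

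Late sterol enzymes, which trim and reduce lanosterol to cholesterol, split into those with the library order and those without it. DHCR7, the last reductase of one route (chromosome 11, 71428193 to 71452868), had 4422, 6831 and 4474 normalized reads in samples 1, 2 and 3 of ALDH high, against 6632, 4565 and 6794 in those of ALDH low. MSMO1, a methyl sterol oxidase, SC5D, a desaturase, and HSD17B7, a ketoreductase, kept the same 3 libraries lowest, with differences of −0.38, −0.33 and −0.39 beside −0.20 for DHCR7. EBP, the sterol isomerase (chromosome X, 48521158 to 48528716), had 3631, 3715 and 3972 normalized reads in samples 1, 2 and 3 of ALDH high, against 3269, 3681 and 6192 in those of ALDH low. TM7SF2, a sterol reductase (chromosome 11, 65111845 to 65116384), had 3707, 3626 and 3936 normalized reads in samples 1, 2 and 3 of ALDH high, against 3533, 3449 and 4782 in those of ALDH low. In both, as in NSDHL, a sterol dehydrogenase, ALDH low 3 was the highest library and ALDH low 1 was at or near the lowest, and the differences were −0.16 for EBP, −0.046 for TM7SF2 and −0.067 for NSDHL. Without ALDH low 3 they were 0.12 for EBP, 0.105 for TM7SF2 and 0.089 for NSDHL. CYP51A1, the lanosterol demethylase, picked for display after its values were seen, had 485, 897 and 473 normalized reads in samples 1, 2 and 3 of ALDH high, against 813, 519 and 441 in those of ALDH low. It was the sterol enzyme with a difference above 0, 0.047 (−0.59 to 0.69), and ALDH low 3 was its lowest library. Other annotated genes on the same strand share 79.4% of its exon bases, so its count is uncertain.

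Exon lengths differed among these genes. PMVK, NSDHL, EBP and TM7SF2, in which ALDH low 3 alone stood high, have 1.28, 1.996, 2.41 and 3.41 kb of exon, and the median sterol gene has 4.33 kb. MSMO1, at 2.89 kb shorter than TM7SF2, kept the library order. Across the 11494 genes averaging 100 or more normalized reads with a known length, the deviation of ALDH low 3 had a Spearman rho of −0.55 with exon length, and that of ALDH high 2 a rho of 0.48. Across the 24 sterol genes the values were −0.33 and 0.33, and across all 33 genes −0.43 and 0.45, all genes of a library sharing its depth and preparation. The part of length in the differences of single genes was not tested.

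Of the 6 regulator and transport genes, 4 kept the library order (SREBF2, INSIG1, SCAP and STARD4), and SREBF1 and INSIG2 did not. SREBF2 (chromosome 22, 41833079 to 41907308) had 8053, 12047 and 7472 normalized reads in samples 1, 2 and 3 of ALDH high, against 11149.5, 8041 and 9983 in those of ALDH low. It followed the order of the sterol enzymes, with a difference of −0.10 (−0.56 to 0.36). SREBF1 (chromosome 17, 17810399 to 17837002), the most abundant regulator per length with an RPKM of 138 ± 9.7 for ALDH high against 123 ± 25.1 for ALDH low (SD, n = 3 each), had 31899.9, 27228 and 30025 normalized reads in samples 1, 2 and 3 of ALDH high, against 20076, 29903 and 32127 in those of ALDH low. ALDH low 1, where HMGCS1, IDI1, INSIG1 and STARD4 were highest, was its lowest library, and its difference was 0.15 (−0.32 to 0.61), which turned to −0.064 without ALDH low 1. INSIG1, both a retention factor and a target of SREBPs (chromosome 7, 155297776 to 155310235), had 3983, 6475 and 4020.1 normalized reads in samples 1, 2 and 3 of ALDH high, against 8828, 3766 and 7463 in those of ALDH low. Its range between libraries was 2.34-fold, with the same 3 libraries lowest as in HMGCS1, and its group difference was −0.42 (−1.09 to 0.25). INSIG2, its paralog, ranged 1.34-fold, with ALDH high 2 lowest, and differed by −0.20. SCAP differed by −0.048, and STARD4, a sterol carrier, by −0.22.

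Fatty acid genes took more of the reads than the sterol genes and had another leading library. They took 0.648%, 1.07% and 0.659% of reads in samples 1, 2 and 3 of ALDH high, against 0.788%, 0.66% and 0.755% in those of ALDH low. The 24 sterol genes took 0.355%, 0.428% and 0.343% in ALDH high samples, against 0.424%, 0.349% and 0.441% in ALDH low samples. ALDH high 2 held the highest value of 5 of the 9 fatty acid genes and of 4 of the 24 sterol genes, against 19.9% of all genes. The median fatty acid gene deviated by 0.38 in ALDH high 2 and by 0.056 in ALDH low 3, where the sterol genes deviated by 0.15 and 0.34. The fatty acid genes have 3.81 (ELOVL5) to 13.0 kb (ACACA) of exon, beside a sterol median of 4.33 kb. Across the 11494 genes averaging 100 or more normalized reads with a known length, rho with exon length was 0.48 for ALDH high 2. For ALDH low 3 it was −0.55. The contrast between the branches, and the part of length in it, was not tested.

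**Figure D3:**
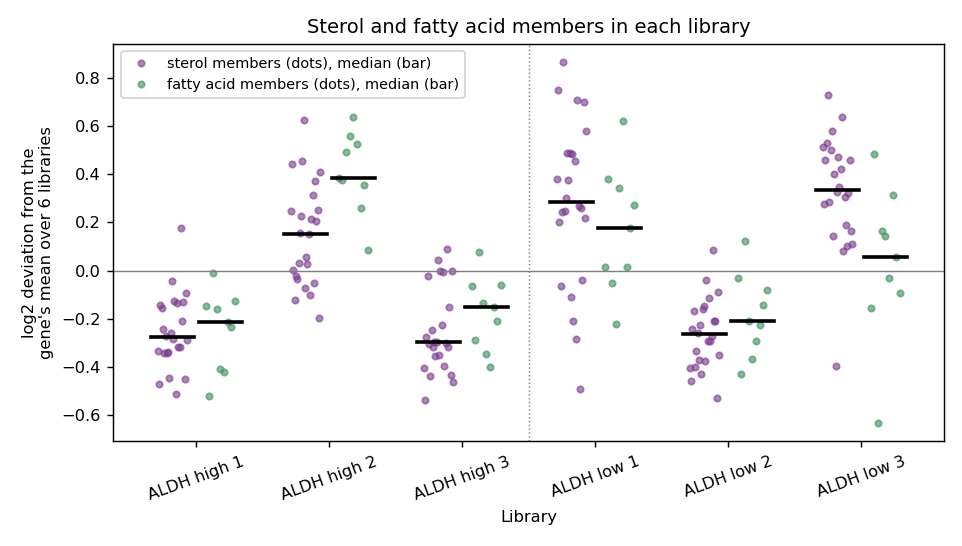
Deviation of each gene from its mean over the 6 libraries (log2), by library, for sterol (purple, left in each pair) and fatty acid genes (green, right), with medians as black bars and ALDH high libraries left of the dotted line. The sterol median is highest in ALDH low 3 at 0.34 and the fatty acid median in ALDH high 2 at 0.38, and both are below 0 in ALDH high 1, ALDH high 3 and ALDH low 2.

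Among the genes of acetyl-CoA supply and chain synthesis, FASN, the fatty acid synthase (chromosome 17, 82078333 to 82098332), was the most abundant per length of all 33, with an RPKM of 328 ± 104 for ALDH high against 273 ± 22.2 for ALDH low (SD, n = 3 each). It had 67144, 110213 and 68292 normalized reads in samples 1, 2 and 3 of ALDH high, against 64283, 64780.1 and 83872 in those of ALDH low. ALDH high 2 stood above all others, and the other 5 libraries lay within 64283 to 83872. ACACA, acetyl-CoA carboxylase, which makes malonyl-CoA (chromosome 17, 37084988 to 37406818), had 5462, 7733 and 5802 normalized reads in samples 1, 2 and 3 of ALDH high, against 5304, 5979.8 and 3546 in those of ALDH low. It was highest in ALDH high 2 and lowest in ALDH low 3, and had the largest positive difference of the 33, 0.37 (−0.10 to 0.85, unadjusted p = 0.111 and adjusted p = 0.984 with limma). ACACA has the most exon of the 33, 13.0 kb, and the part of length in its values was not tested. ACLY, which splits citrate to acetyl-CoA, had 11800.0, 17036 and 12495 normalized reads in samples 1, 2 and 3 of ALDH high, against 13187, 12791 and 11746 in those of ALDH low. The differences of FASN and ACLY were 0.18 and 0.11, and without ALDH high 2 they were −0.057 and −0.049. ACSS2, which makes acetyl-CoA from acetate, had 1699, 3159 and 1995 normalized reads in samples 1, 2 and 3 of ALDH high, against 3167, 1807 and 3402 in those of ALDH low. It took the order of the sterol genes, with a difference of −0.29 (−0.90 to 0.32).

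Desaturases and elongases had differences below 0 in all 5 genes, and none passed the test. SCD, the stearoyl-CoA desaturase (chromosome 10, 100347124 to 100364834), had 28069.9, 58029.6 and 29339 normalized reads in samples 1, 2 and 3 of ALDH high, against 47214, 28907 and 41199.9 in those of ALDH low. Within ALDH high the value of sample 2 was 2.07 times that of sample 1, and the group difference was −0.078 (−0.74 to 0.58), which ran from −0.42 without ALDH high 2 to 0.11 without ALDH high 1. FADS2, the delta-6 desaturase (chromosome 11, 61792980 to 61867354), had 45467, 62979 and 47421 normalized reads in samples 1, 2 and 3 of ALDH high, against 53238, 44985 and 65498 in those of ALDH low. ELOVL5, an elongase of polyunsaturated chains, had 6364, 9572 and 6487 normalized reads in samples 1, 2 and 3 of ALDH high, against 8452, 6782 and 7784 in those of ALDH low. Both had ALDH high 1, ALDH high 3 and ALDH low 2 as their lowest libraries, as did FADS1, the delta-5 desaturase, whose gene lies beside FADS2 on chromosome 11. Differences were −0.069 for FADS2, −0.058 for ELOVL5, −0.20 for FADS1 and −0.066 for ELOVL6, an elongase of saturated chains.

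Counted over the branches, 22 of 24 sterol genes had a log2 difference below 0, with a median of −0.25, and 6 of 9 fatty acid genes, with a median of −0.066, where 47.7% of all genes lay below 0 and their median was 0.015. SREBF1 and CYP51A1 were the sterol genes above 0, and ACACA, FASN and ACLY the fatty acid ones. The sterol count was 18 with spike-in scaling and 20 with total-count scaling without mitochondrial genes, and the fatty acid count 2 and 5. Spike-in scaling moved the median of all genes to 0.15, and relative to it the medians were −0.26 for the sterol and −0.080 for the fatty acid genes. Single libraries set the size of the sterol median, which was −0.14 without ALDH low 3, −0.15 without ALDH low 1, −0.44 without ALDH high 2 and −0.46 without ALDH low 2, with 18, 21, 23 and 23 genes below 0. The fatty acid median turned to 0.044 without ALDH high 1, 0.031 without ALDH high 3 and 0.062 without ALDH low 1, and was −0.22 without ALDH high 2, −0.14 without ALDH low 2 and −0.026 without ALDH low 3. The range between samples of one group was wider than the difference between the group means in 33 of the 33 genes, as in 15638 of all 16000.

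**Figure D4:**
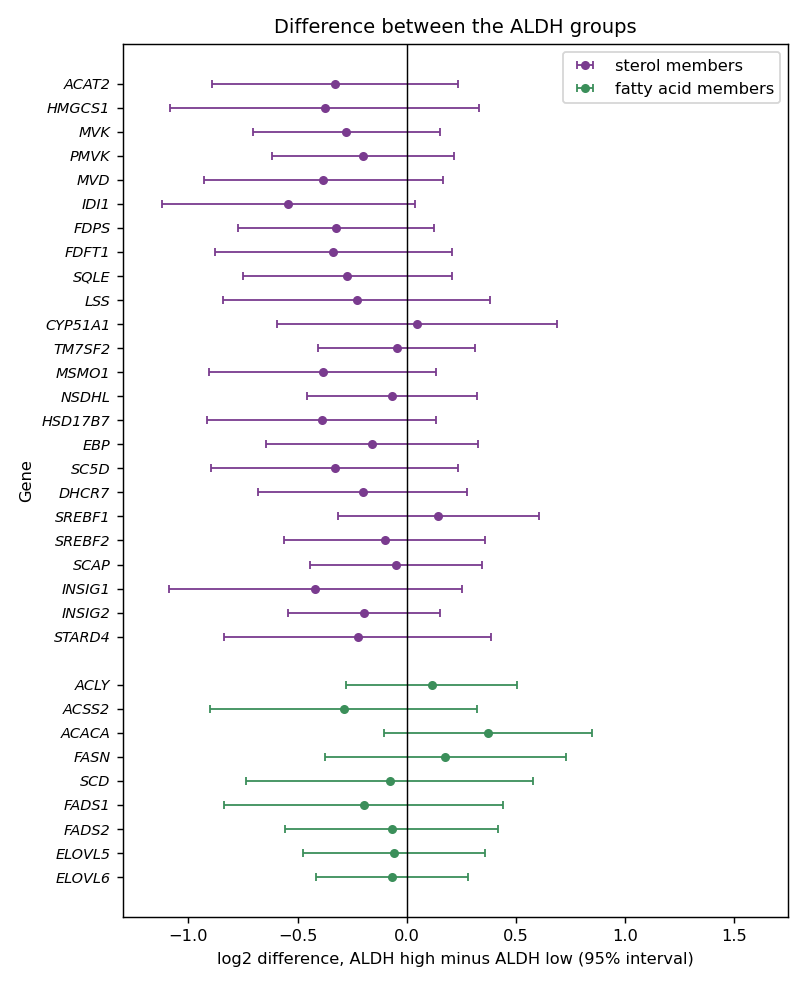
Log2 difference, ALDH high minus ALDH low, of each of the 33 genes with its 95% interval from limma (n = 3 each), sterol genes in purple above and fatty acid genes in green below. All intervals include 0, and 22 of the 24 sterol genes lie below 0.

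The ranges between libraries were wide next to counting error. Of the 33 genes, 11 ranged more than 2-fold over the 6 libraries, against 29.9% of all genes and 13.6% of those averaging 100 or more normalized reads, a level all 33 passed. HMGCS1, IDI1 and INSIG1 ranged most, at 2.44, 2.47 and 2.34 times from the lowest to the highest library. Counting error alone was 0.409% of the value for FASN and 5.0% for STARD4 in the library with their fewest reads, and covers counting only. The 25 spike-in sequences of that level had a median log2 range of 0.29 after the median offset of a library was taken out, and none ranged above 1, where the median sterol gene ranged 0.88 and the median fatty acid gene 0.78.

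Of 65 other lipid genes listed, 62 had values, with ABCA1, ELOVL2 and ELOVL4 not analysed here. None passed the test in either direction, and 33 had differences below 0 and 29 above, with a median of −0.012. PGGT1B, a subunit of a prenyltransferase, and OXSM, of mitochondrial fatty acid synthesis, had no overlap between groups, which is 2 of the 62, against 6.99% of all genes, and OXSM was the 1 gene of the 62 at an unadjusted p under 0.05, against 2.11%. Neither share is above that of all genes. OXSM had 815, 848 and 767 normalized reads in samples 1, 2 and 3 of ALDH high, against 1215, 903 and 1047 in those of ALDH low. All its ALDH high values lay under its ALDH low values, and the difference was −0.37 (−0.73 to −0.015, unadjusted p = 0.0428 and adjusted p = 0.984 with limma). PGGT1B had 939, 883 and 857 normalized reads in samples 1, 2 and 3 of ALDH high, against 1101, 940.0 and 1029 in those of ALDH low. The lowest ALDH low value of PGGT1B was just above its highest ALDH high value, with a difference of −0.19 (−0.52 to 0.13). The library order of the sterol genes was found in 11 of the 62 (17.7%), against 12.0% of all genes. By class it held in 2 of 13 genes of SREBP processing, 1 of 9 other sterol and isoprenoid enzymes and 1 of 11 of storage and export. It held in 6 of 19 of other fatty acid synthesis and activation and 1 of 10 of fatty acid oxidation. The opposite order was found in 4 of the 62, against 13.6% of all genes, and 2 of them, ABCG1 and MYLIP, were of storage and export. NPC1, which moves cholesterol out of lysosomes and was chosen after its values were seen, had 2771, 8338 and 2676 normalized reads in samples 1, 2 and 3 of ALDH high, against 6684, 2876 and 5478 in those of ALDH low. Its 3 lowest libraries were those of the sterol enzymes, with a wider range, 3.12-fold.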

How the data were processed

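RNA selected by poly(A) tail was measured in 3 ALDH high and 3 ALDH low samples. Per the submitters' processing notes, Trimmomatic 0.36, STAR 2.5.2b, featureCounts of Subread 1.5.2 and DESeq2 were used with build GRCh38, and per the labels' protocols only uniquely placed exon reads were counted. The sources used here do not say which annotation release was used or whether strand was kept, so reads of overlapping antisense genes, which share 52.3% of the exon bases of ACAT2, 18.6% of FDPS, 15.0% of HMGCS1 and 14.8% of IDI1, cannot be told apart. Unique counting can lose reads of genes with annotated pseudogene copies (FDPS, CYP51A1, HSD17B7, SCD and FADS2).

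The authors deposited a normalized signal, each read count divided by that sample's size factor, with their log2 fold change (positive where ALDH low is higher) and p-values. The table held 16000 genes and 46 spike-in sequences, with a lowest mean of 9.65. Whole reads were recovered for 99.99% or more of every sample's values within 0.02 of a read.

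Limma 3.58.1 (R 4.3.3) with a mean-variance trend was run on log2(value + 1) over all genes, a scale that understates changes of low genes. EdgeR 4.0.16, DESeq2 1.42.0 and limma-voom on recovered reads were alternatives, as listed with the other settings in the closing section, and the fit was tested on simulated data. Lengths and coordinates came from GENCODE release 29 (GRCh38) and promoter sequences from RefSeq. No pair of libraries agreed within sampling noise, the lowest mean chi-square per gene being 5.31 (ALDH high 1 with ALDH low 2). The genes, the lists and the rule for which genes are given per sample (the 3 most abundant of each role, the 2 with the largest difference each way, and any that passed or did not overlap) were chosen with earlier results of these data known. All 33 are named with their difference.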

Additional observations from a re-analysis of the deposited data

How the results depend on the processing

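With 3 samples per group, 0 of the 33 genes were called under any of the 18 alternatives, and 17 kept the sign of their difference under all of them. Over all genes, spike-in scaling called 1 gene and counted 546 genes without overlap between groups, against 1119 as deposited, and the 11506 genes averaging 100 or more normalized reads held 722. Spike-in scaling left 2 fatty acid genes below 0 and turned the sign to 0.088 in TM7SF2, 0.068 in NSDHL, 0.033 in SREBF2, 0.087 in SCAP, 0.057 in SCD, 0.066 in FADS2, 0.077 in ELOVL5 and 0.069 in ELOVL6. Total-count scaling without mitochondrial genes turned it to 0.014 in TM7SF2, 0.012 in SCAP and 0.0019 in ELOVL5. The library order was held by 16 sterol and 3 fatty acid genes with spike-in scaling (9.86% of all genes), and by 4 fatty acid genes with total-count scaling without mitochondrial genes. The other tests, pseudocounts of 0.5 and 5 and a fit with no trend kept all signs.

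Leaving out 1 library in turn gave 0 called genes and 1732 to 4531 without overlap, the highest without ALDH low 2. Below 0 were 18 to 23 sterol and 2 to 8 fatty acid genes, with medians of −0.46 to −0.14 and −0.22 to 0.062. Differences whose sign turned ran from −0.049 to 0.22 for ACLY, −0.25 to 0.30 for CYP51A1, −0.34 to 0.12 for EBP, −0.25 to 0.044 for ELOVL5, −0.13 to 0.054 for ELOVL6, −0.51 to 0.062 for FADS1, −0.22 to 0.071 for FADS2, −0.057 to 0.30 for FASN, −0.19 to 0.089 for NSDHL, −0.33 to 0.016 for PMVK, −0.16 to 0.10 for SCAP, −0.42 to 0.11 for SCD, −0.064 to 0.28 for SREBF1, −0.31 to 0.031 for SREBF2, −0.49 to 0.0073 for STARD4 and −0.13 to 0.105 for TM7SF2. Leaving out both samples numbered 2, chosen after seeing the data, called 107 genes, none of the 33, with 7714 genes without overlap and medians of −0.63 for sterol and −0.34 for fatty acid genes, and turned the sign to −0.32 in CYP51A1, −0.036 in ACLY and −0.12 in FASN. These fits hold fewer samples. Depth allows a counting error of 5.0% or less in the 33 genes.

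A fit with the replicate number as a block called 0 genes, with 226 at an unadjusted p under 0.05 against 338. Deviations of same-numbered samples from their group means correlated at −0.46, −0.43 and 0.14 across genes for samples 1, 2 and 3. ALDH high 2 correlated best with ALDH low 1, at 0.56. Because the libraries stood apart in a way that crosses the labels, these values cannot show whether a number stands for a shared sort or batch.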
